A study of Mus musculus with 4 samples.

Results

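The DNA replication machinery was examined as 52 genes, chosen by name, of the 34745 genes in the table of counts. They encode the proteins that mark and license origins (9 genes), the replicative helicase with its loading and activating factors (16 genes), the replicative polymerases (11 genes), the sliding clamp with its loader (6 genes), and proteins that bind single-stranded DNA, process and join DNA ends or protect the fork (10 genes). The choice used no measured value of these libraries, although earlier results of the data were known when it was made. The pathway column of the table assigned 34 genes to DNA replication, and 29 of these were among the 52.

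RNA was sequenced from naive CD4+ T cells of C57BL/6 mouse spleen that had been kept for 3 days in culture under conditions that polarize towards regulatory T (Treg) cells. The knockout-labelled libraries, numbered 22 and 24, have the genotype Setd2-CD4 cre, which names the histone H3 lysine 36 methyltransferase gene Setd2 and a Cre recombinase under CD4 control. The wild-type libraries, numbered 13 and 15, went through the same culture. The labels give the Cre driver but not the floxed exons, the age or sex of the mice, or whether replicate libraries were made from different mice. A p-value here therefore reflects library-to-library spread that could be purely technical.

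Library totals were between 14599957 and 16030869 counts. Setd2 had 137 and 113 CPM (counts relative to the scaled library size) in knockout-labelled 22 and 24, against 137 and 146 CPM in wild type 13 and 15. This difference did not pass the test (adjusted p = 0.436), and because a count over the whole gene does not isolate the deleted part, the groups are named by their labels. Foxp3, the Treg lineage factor, had 31.9 and 75.8 CPM in knockout-labelled 22 and 24, against 242 and 247 CPM in wild type 13 and 15 (adjusted p = 0.0233), so the knockout-labelled cultures carried less of the RNA that defines the labelled cell type. Summed T-cell marker RNA (8 genes) was 3877 to 4040 CPM in the knockout-labelled libraries and 3761 to 3942 CPM in wild type. Within this sum, Cd3g and Trac had both knockout-labelled libraries below both wild-type libraries. Lck, Cd5 and Cd28 had both above, and none of the 8 genes passed the test.

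Before DNA can be copied, the origin recognition complex (ORC) together with Cdc6 and Cdt1 loads the MCM2-7 ring onto DNA in G1, and geminin later prevents reloading. The kinase Cdc7 with its activator Dbf4, and the factors Cdc45, GINS and Mcm10, then turn the ring into a moving helicase. Polymerase alpha and primase lay down primers, the RFC complex loads the PCNA ring, polymerases epsilon and delta extend the leading and lagging strands, and Fen1, Dna2 and DNA ligase 1 process and seal Okazaki fragments. A resting naive T cell holds little of this machinery, and many of its genes are transcribed as the stimulated cell passes from G1 into S phase, in good part through the E2F factors.

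Most replication genes had less RNA in the knockout-labelled libraries than in wild type. All 52 passed the filter on low counts, and 22 of them fell past the test (edgeR's quasi-likelihood test, adjusted p below 0.05 over all 13279 genes tested), by 1.47-fold to 2.60-fold. Over all genes tested, 4.59% fell. One member, Cdc7, rose, where 5.53% of all genes rose, and 29 members passed in neither direction. The leading-strand polymerase gene Pole, the primer polymerase gene Pola1 and the fork protection gene Timeless were the 3 members that fell past the test by 2-fold or more. Past the test or not, 9.62% of the members and 4.43% of all genes tested had a log2 fold change of -1 or below. The sum over the 52 genes was 4260.6 and 5085.1 CPM in knockout-labelled 22 and 24, against 6479.4 and 6982.2 CPM in wild type 13 and 15. That was 0.408% and 0.509% of all counts in knockout-labelled 22 and 24, against 0.6595% and 0.713% in wild type 13 and 15. In a bulk culture, fewer cells in S phase and less of these RNAs per cell cannot be told apart.

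The fitted log2 fold change was below 0 in 46 of the 52 genes (88.5%), where 50.1% of all genes tested lay below 0. Its median was -0.657 over the 52 genes and -0.001 over all genes. In 41 members (78.8%) both knockout-labelled libraries lay below both wild-type libraries, where 32.7% of all genes did so. Only Orc4 and Cdc7 had both knockout-labelled libraries above both wild-type libraries, where 4132 of all 13279 genes tested did so. In 9 members the groups overlapped. All 22 genes that fell had groups that did not overlap. Passing the test draws on the same values, so this is not separate support. Without adjustment, 35 members were lower and 2 higher at p below 0.05, where 15.5% of all genes tested were lower and 16.2% higher. DESeq2 called 29 members lower and 2 higher, where it called 6.87% of all genes lower and 8.27% higher. As a description over the 52 genes, which share the 4 libraries, Spearman's rho of the log2 fold change with the mean deposited FPKM in wild type was -0.003.

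**Figure D1:**
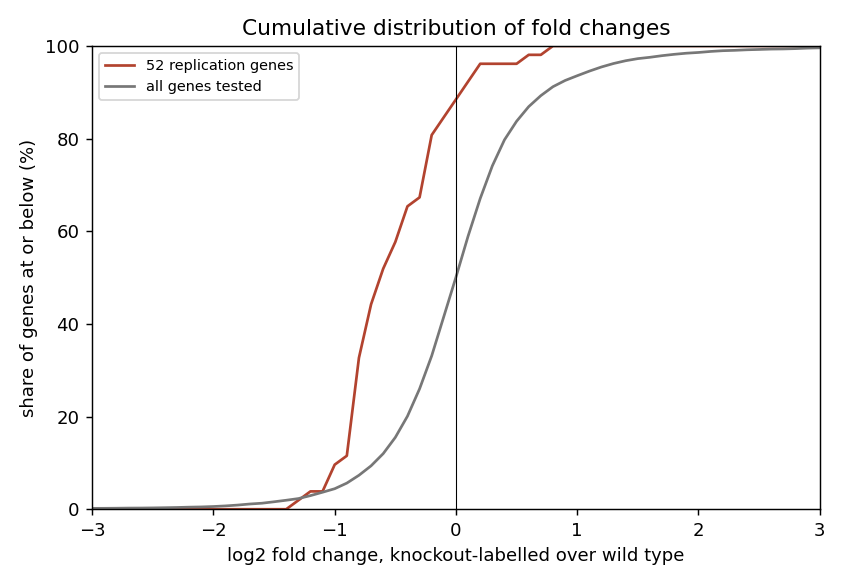
Cumulative share of genes (vertical axis, %) at or below each log2 fold change of knockout-labelled over wild type (horizontal axis), for the 52 replication genes and for all 13279 genes tested. At a log2 fold change of -0.5 the curve of the replication genes has reached 57.69%, against 15.51% for all genes.

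The 2 libraries of each group were not equally low. Knockout-labelled 22 lay below knockout-labelled 24 in 45 of the 52 genes, where it did so in 50.9% of all genes tested. Wild type 13 lay below wild type 15 in 41 of the 52 genes, where it did so in 49.3% of all genes. The median difference from the wild-type mean of log2(CPM + 0.5) was -0.735 in knockout-labelled 22 and -0.485 in knockout-labelled 24 over the 52 genes, and -0.007 and -0.006 over all genes tested. The number that fell depended on the libraries entered, for the members as for all genes. Without knockout-labelled 22, 26 members fell (6.55% of all genes tested did so), and without knockout-labelled 24, 39 members fell (14.6% of all genes). Without wild type 13, 3 members fell, Pola1, Pole and Timeless (0.936% of all genes), and without wild type 15 only Pole fell (0.506% of all genes). At an unadjusted p below 0.05, 29 members were lower without wild type 13 (8.28% of all genes) and 27 without wild type 15 (7.11% of all genes).

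**Figure D2:**
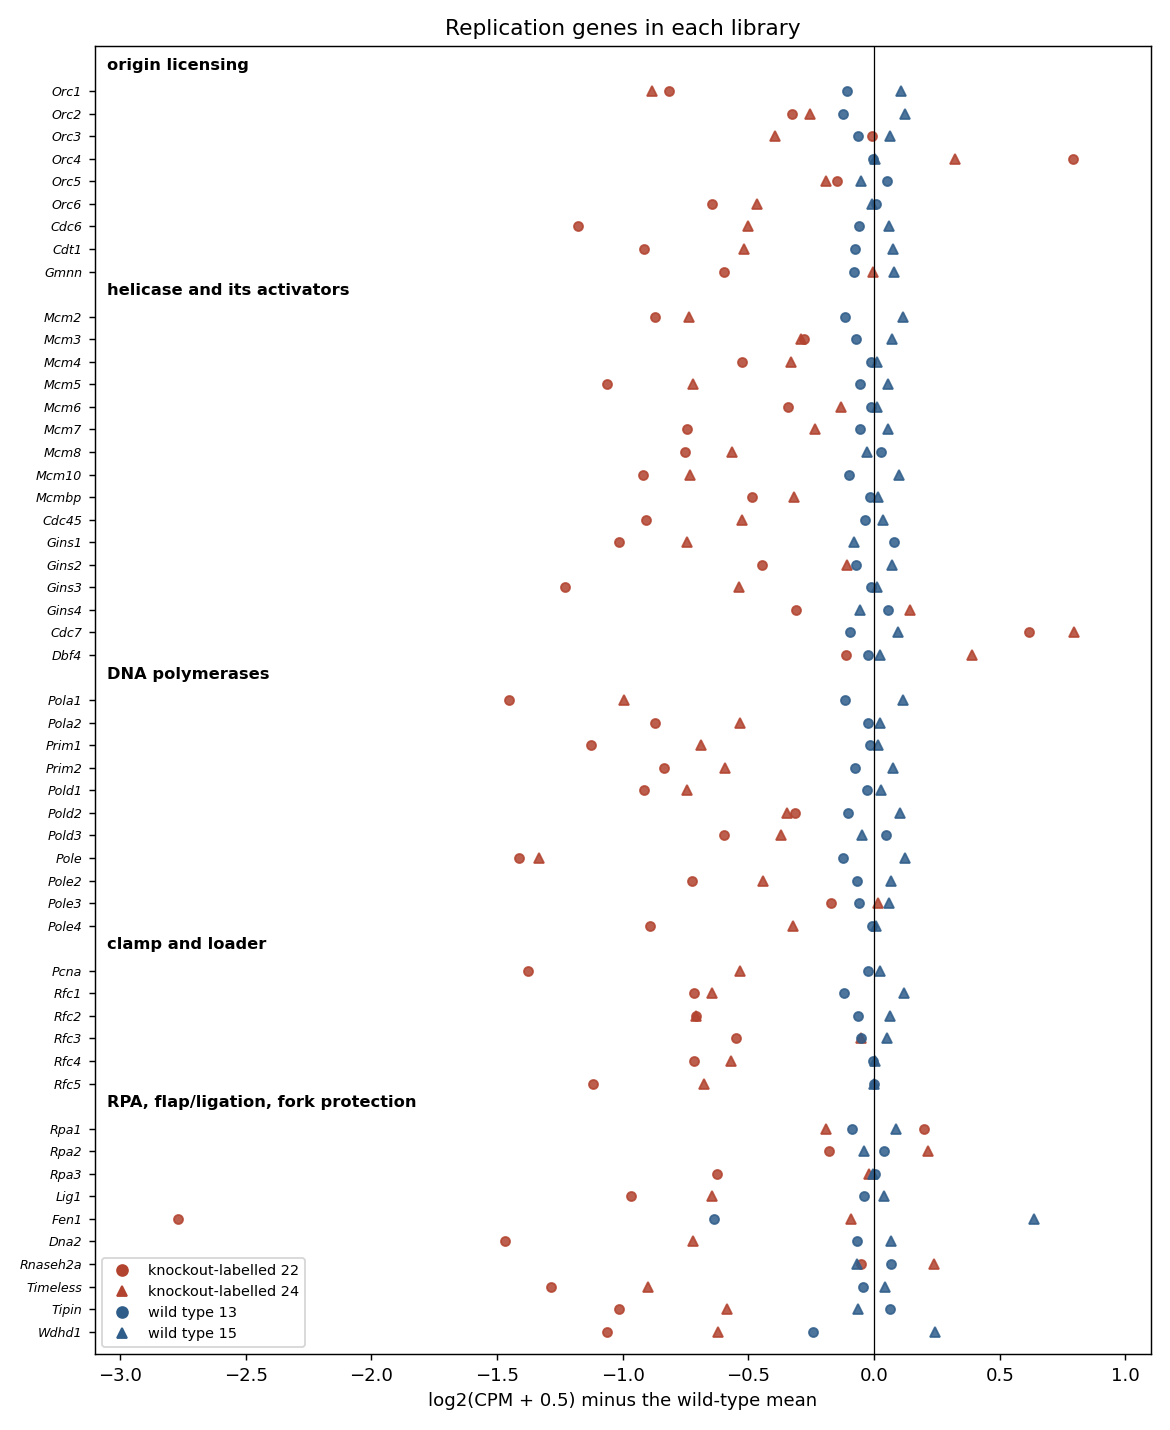
Each replication gene (rows, grouped by class) in each library, as log2(CPM + 0.5) minus the mean of the 2 wild-type libraries. Most knockout-labelled points lie left of 0, knockout-labelled 22 lies left of knockout-labelled 24 in 45 of the 52 rows, and Fen1 is spread widely in both groups.

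Of the 9 origin and licensing genes, 3 fell, none rose, and the median log2 fold change was -0.298. Orc1 (ENSMUSG00000028587, chromosome 4, 108579423 to 108614833, plus strand, GRCm38), the largest ORC subunit, had 13.7 and 13.0 CPM in knockout-labelled 22 and 24, against 22.6 and 26.4 CPM in wild type 13 and 15. Its log2 fold change was -0.88 (SE 0.17, adjusted p = 0.0317), and the knockout-labelled libraries lay close together, well below wild type. Orc6, the smallest ORC subunit, had 42.1 and 47.7 CPM in knockout-labelled 22 and 24, against 66.5 and 65.8 CPM in wild type 13 and 15 (log2 fold change -0.56, SE 0.13, adjusted p = 0.0457). Cdt1, which brings MCM2-7 to ORC, had 61.6 and 81.2 CPM in knockout-labelled 22 and 24, against 110.6 and 123 CPM in wild type 13 and 15 (log2 fold change -0.71, SE 0.17, adjusted p = 0.0482). The spread of Cdt1 was wider than that of Orc6, but neither overlapped between groups.

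The other origin genes did not pass the test. Cdc6, the ATPase that completes ring loading, had 35.9 and 57.6 CPM in knockout-labelled 22 and 24, against 78.6 and 85.2 CPM in wild type 13 and 15 (log2 fold change -0.81, adjusted p = 0.0658). Its groups did not overlap, and the knockout-labelled libraries were far apart. Gmnn, which encodes geminin, had 46.6 and 70.5 CPM in knockout-labelled 22 and 24, against 66.8 and 74.7 CPM in wild type 13 and 15 (adjusted p = 0.403), and its groups overlapped. Orc4 was the one origin gene with a fitted value above 0, at 120.5 and 87.1 CPM in knockout-labelled 22 and 24, against 69.3 and 69.6 CPM in wild type 13 and 15 (log2 fold change 0.58, SE 0.18, adjusted p = 0.0833). Without knockout-labelled 24 it passed the threshold as higher (adjusted p = 0.00592). Orc4 shares 446 bases with Acvr2a on the opposite strand, and Acvr2a held 16.9% and 22.9% of their summed counts in knockout-labelled 22 and 24, against 31.1% and 29.2% in wild type 13 and 15. Orc4 also overlaps the opposite-strand gene Mbd5 over 770 bases, and Mbd5 had 2168 counts over the 4 libraries where Orc4 had 5333. Orc2, Orc3 and Orc5, the remaining ORC subunits, had log2 fold changes of -0.30, -0.19 and -0.17, and Orc3 had the highest adjusted p of the class (0.466). Orc2 overlaps Nif3l1, which held 18.1% to 25.2% of the summed counts of the pair.

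Of the 16 helicase genes, 6 fell and 1 rose, and the median log2 fold change was -0.447. All 6 subunits of the MCM2-7 ring had both knockout-labelled libraries below both wild-type libraries, but only Mcm2 and Mcm5 passed the test. Mcm5 (ENSMUSG00000005410, chromosome 8, 75109528 to 75128439, plus strand) had 175 and 222 CPM in knockout-labelled 22 and 24, against 353 and 382 CPM in wild type 13 and 15 (means 199 ± 33.4 and 367 ± 20.5 CPM, SD, n = 2 each). Its log2 fold change was -0.89 (SE 0.15, adjusted p = 0.0229). Mcm2 (ENSMUSG00000002870, chromosome 6, 88883474 to 88898780, minus strand) had 122 and 134 CPM in knockout-labelled 22 and 24, against 207 and 242.5 CPM in wild type 13 and 15 (log2 fold change -0.81, SE 0.14, adjusted p = 0.0231). In both genes the gap between groups was wider than the spread within either group.

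The other 4 ring subunits differed by less. Mcm4 had 276 and 315.5 CPM in knockout-labelled 22 and 24, against 393.5 and 400 CPM in wild type 13 and 15 (log2 fold change -0.42, SE 0.12, adjusted p = 0.0667). Mcm7 had 188 and 268 CPM in knockout-labelled 22 and 24, against 304 and 327 CPM in wild type 13 and 15 (log2 fold change -0.47, SE 0.18, adjusted p = 0.132). Both genes had a gap between the groups, and in Mcm7 it was smaller than the distance between the knockout-labelled libraries. Mcm3 had 277.5 and 275.6 CPM in knockout-labelled 22 and 24, against 321 and 354 CPM in wild type 13 and 15 (log2 fold change -0.29, SE 0.11, adjusted p = 0.141). Mcm6 had 377 and 436 CPM in knockout-labelled 22 and 24, against 474 and 482 CPM in wild type 13 and 15 (log2 fold change -0.23, SE 0.12, adjusted p = 0.232), the smallest size among the ring genes. Whether the ring subunits differed from one another in their fold change was not tested.

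The ring subunits are assembled in equal number, so their RNA levels were also compared per length. The mean deposited FPKM (counts relative to gene length and library total) was 14.1 in the knockout-labelled group and 25.6 in wild type for Mcm2. In the knockout-labelled group the mean deposited FPKM was 40.4 for Mcm3, 80.8 for Mcm4, 57.1 for Mcm5, 68.6 for Mcm6 and 33.1 for Mcm7. In wild type it was 51.3 for Mcm3, 113 for Mcm4, 109 for Mcm5, 83.7 for Mcm6 and 47.5 for Mcm7. Mcm2 was the lowest of the 6 by deposited FPKM, and also by CPM per kilobase of union exons or of the longest transcript. The order of the others depended on the length used, since the lengths behind the deposited FPKM of the 52 members were 0.346 to 2.893 times the union exon length of the annotation and within 10% of it in 3 of them.

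Among the helicase partners, Mcm10, a factor that activates the helicase, fell with 69.9 and 79.7 CPM in knockout-labelled 22 and 24, against 124 and 142 CPM in wild type 13 and 15 (log2 fold change -0.83, SE 0.14, adjusted p = 0.0252). Cdc45, which joins MCM2-7 and GINS in the active helicase, had 65.5 and 85.4 CPM in knockout-labelled 22 and 24, against 120 and 126 CPM in wild type 13 and 15 (log2 fold change -0.71, SE 0.16, adjusted p = 0.0439). Gins1 and Mcm8, a helicase paralogue of meiotic and repair recombination, also fell (log2 fold changes -0.91 and -0.67, adjusted p = 0.0389 and 0.0377). Gins3 (log2 fold change -0.85, adjusted p = 0.0605) and the MCM-binding protein gene Mcmbp (-0.40, adjusted p = 0.0862) did not pass the test, although neither gene overlapped between groups. Gins2 and Gins4 were also not past it, and Gins4, at 39.8 and 54.8 CPM in knockout-labelled 22 and 24 and 51.5 and 47.7 CPM in wild type 13 and 15, had the highest adjusted p of the class (0.824). Gins2 (log2 fold change -0.27, adjusted p = 0.301) is uncertain, because it shares 2758 bases of transcript with the opposite-strand gene Gse1, which held 57.3% to 77.0% of the summed counts of the pair.

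The kinase that fires licensed origins went the other way. Cdc7 (ENSMUSG00000029283, chromosome 5, 106964322 to 106984432, plus strand) rose, with 109.5 and 124 CPM in knockout-labelled 22 and 24, against 66.7 and 76.3 CPM in wild type 13 and 15 (means 117 ± 10.3 and 71.5 ± 6.78 CPM, SD, n = 2 each). Its log2 fold change was 0.71 (SE 0.14, adjusted p = 0.0332), a 1.63-fold higher level. Without wild type 13 or wild type 15 it did not pass the threshold (adjusted p = 0.26 and 0.174). Its activator Dbf4 had 115 and 162 CPM in knockout-labelled 22 and 24, against 122 and 126 CPM in wild type 13 and 15 (log2 fold change 0.16, SE 0.18, adjusted p = 0.58), and the groups overlapped. Without knockout-labelled 22, Dbf4 passed as higher (adjusted p = 0.0382), and without knockout-labelled 24 its log2 fold change was -0.12.

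**Figure D3:**
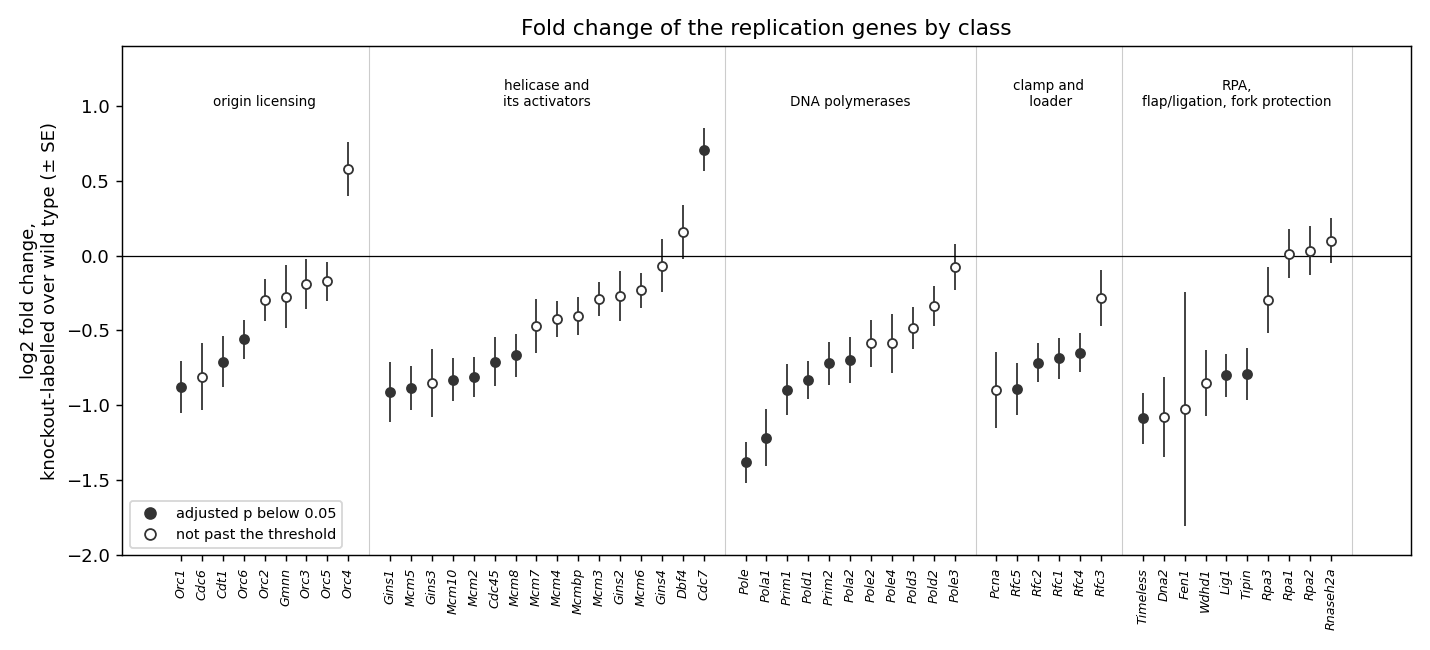
Log2 fold change of knockout-labelled over wild type (points, with approximate standard errors as bars) for each replication gene, grouped by class along the horizontal axis. Filled points passed an adjusted p of 0.05 (22 below 0, and Cdc7 above 0), and open points did not.

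Of the 11 polymerase genes, 6 fell, none rose, and the median log2 fold change was -0.696. Pole, the catalytic subunit of polymerase epsilon (ENSMUSG00000007080, chromosome 5, 110286306 to 110337474, plus strand), had 96.4 and 102 CPM in knockout-labelled 22 and 24, against 236 and 281 CPM in wild type 13 and 15 (means 99.3 ± 4.07 and 259 ± 31.6 CPM, SD, n = 2 each). This was 2.60-fold lower (log2 fold change -1.38, SE 0.14, adjusted p = 0.0103). Pole had the largest fold of the 52 genes and was the only one that passed the test in each of the 4 fits that left out a library, with adjusted p between 0.00414 and 0.0239. Its partners in polymerase epsilon did not pass. Pole2 had 24.4 and 29.8 CPM in knockout-labelled 22 and 24, against 38.9 and 42.6 CPM in wild type 13 and 15 (log2 fold change -0.59, adjusted p = 0.0609). Pole3 and Pole4 encode the histone-fold subunits. Pole3 had 26.9 and 30.7 CPM in knockout-labelled 22 and 24, against 29.1 and 31.7 CPM in wild type 13 and 15 (log2 fold change -0.08, adjusted p = 0.759, the highest of the class). For Pole4 the log2 fold change was -0.58 (adjusted p = 0.101).

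All 4 genes of the polymerase alpha and primase complex fell. Pola1, its catalytic polymerase subunit (ENSMUSG00000006678, chromosome X, 93304767 to 93632155, minus strand), had 42.9 and 59.1 CPM in knockout-labelled 22 and 24, against 109 and 128 CPM in wild type 13 and 15 (means 51.0 ± 11.5 and 119 ± 13.2 CPM, SD, n = 2 each). This was 2.33-fold lower (log2 fold change -1.22, SE 0.19, adjusted p = 0.0204), and leaving out wild type 15 gave an adjusted p of 0.069. Prim1, the primase catalytic subunit, had 64.5 and 87.5 CPM in knockout-labelled 22 and 24, against 140 and 143 CPM in wild type 13 and 15 (log2 fold change -0.90, SE 0.17, adjusted p = 0.0301). The accessory subunit genes Pola2 and Prim2 were 1.62-fold and 1.65-fold lower (adjusted p = 0.041 and 0.0332). Pold1, the catalytic subunit of polymerase delta, had 95.9 and 108 CPM in knockout-labelled 22 and 24, against 178 and 184 CPM in wild type 13 and 15 (log2 fold change -0.83, SE 0.13, adjusted p = 0.0199). Its partners Pold2 and Pold3 had log2 fold changes of -0.34 and -0.48 and did not pass (adjusted p = 0.142 and 0.0721), although the groups did not overlap in either. When knockout-labelled 22 or 24 was left out, 6 and 9 polymerase genes fell, and when wild type 13 or 15 was left out, 2 and 1 did.

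Of the 6 clamp genes, 4 fell and none rose, and all 6 had both knockout-labelled libraries below both wild-type libraries. The median log2 fold change was -0.701. The clamp itself did not pass. Pcna (ENSMUSG00000027342, chromosome 2, 132249162 to 132253314, minus strand) had 142 and 255 CPM in knockout-labelled 22 and 24, against 363 and 376 CPM in wild type 13 and 15 (means 198 ± 79.9 and 370 ± 8.96 CPM, SD, n = 2 each). Its log2 fold change of -0.90 had a wide error (SE 0.26, adjusted p = 0.0692), and knockout-labelled 22 was far below knockout-labelled 24. The table also counts reads for Pcna-ps2, a pseudogene that matches Pcna at 99.23% over 781 bases. It held 33.4% and 34.1% of their summed counts in knockout-labelled 22 and 24, against 34.6% and 33.1% in wild type 13 and 15, so the pair had nearly the same ratio in each library. Adding these counts to Pcna, a choice made after the data were seen, left the log2 fold change at -0.90 (adjusted p = 0.0704).

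In the clamp loader, Rfc2 had 60.8 CPM in both knockout-labelled 22 and 24, against 95.5 and 104 CPM in wild type 13 and 15 (log2 fold change -0.71, SE 0.13, adjusted p = 0.0267). Rfc2 overlaps Lat2, which held 12.6% and 10.6% of their summed counts in knockout-labelled 22 and 24 and 3.2% and 2.8% in wild type 13 and 15. Rfc5 had 34.0 and 46.3 CPM in knockout-labelled 22 and 24, against 74.4 and 74.3 CPM in wild type 13 and 15 (log2 fold change -0.89, SE 0.17, adjusted p = 0.0306). Rfc4 had 40.0 and 44.2 CPM in knockout-labelled 22 and 24, against 65.8 and 66.1 CPM in wild type 13 and 15 (log2 fold change -0.65, SE 0.13, adjusted p = 0.0314). The small loader subunits Rfc2, Rfc4 and Rfc5 had no overlap between groups. Rfc1, the large subunit, had 97.3 and 102 CPM in knockout-labelled 22 and 24, against 147 and 174 CPM in wild type 13 and 15 (log2 fold change -0.69, SE 0.14, adjusted p = 0.0324). Rfc3 was the one loader gene not past the test, at 44.8 and 63.5 CPM in knockout-labelled 22 and 24, against 63.55 and 68.2 CPM in wild type 13 and 15 (log2 fold change -0.28, SE 0.18, adjusted p = 0.337). Knockout-labelled 24 and wild type 13 were nearly equal for it.

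Of the 10 remaining fork genes, 3 fell, none rose, and the median log2 fold change was -0.795. Timeless, a fork protection factor (ENSMUSG00000039994, chromosome 10, 128232065 to 128252941, plus strand), had 45.4 and 59.6 CPM in knockout-labelled 22 and 24, against 108 and 115 CPM in wild type 13 and 15. This was 2.12-fold lower (log2 fold change -1.09, SE 0.17, adjusted p = 0.0199), and leaving out wild type 15 gave an adjusted p of 0.0785. Tipin, its partner, had 64.5 and 87.1 CPM in knockout-labelled 22 and 24, against 137 and 125 CPM in wild type 13 and 15 (log2 fold change -0.79, SE 0.17, adjusted p = 0.0397). Lig1, the ligase that seals Okazaki fragments, had 163 and 203 CPM in knockout-labelled 22 and 24, against 310 and 327 CPM in wild type 13 and 15 (log2 fold change -0.80, SE 0.14, adjusted p = 0.0262). Wdhd1, which tethers polymerase alpha to the helicase, and Dna2, a nuclease and helicase that trims long flaps, came close to the threshold (log2 fold changes -0.85 and -1.08, adjusted p = 0.0563 and 0.052).

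Fen1, the flap nuclease, was spread widely within both groups. It had 9.90 and 66.1 CPM in knockout-labelled 22 and 24, against 45.2 and 110 CPM in wild type 13 and 15 (log2 fold change -1.02, SE 0.78, adjusted p = 0.405). The groups overlapped, so no difference can be read from this gene at this number of libraries. Its adjusted p was 0.0232 without knockout-labelled 24. The 3 genes of RPA, the single-strand binding complex, had a median log2 fold change of 0.013. None passed the test, none was past an unadjusted p of 0.05, and DESeq2 called 0. Rpa1 had 239 and 182 CPM in knockout-labelled 22 and 24, against 196 and 221 CPM in wild type 13 and 15 (log2 fold change 0.01, SE 0.16, adjusted p = 0.964). Rpa2 had 95.6 and 126 CPM in knockout-labelled 22 and 24, against 111 and 105 CPM in wild type 13 and 15 (log2 fold change 0.03, SE 0.16, adjusted p = 0.912), and both genes turned below 0 when libraries were scaled by their totals. For Rpa3 the log2 fold change was -0.30 (adjusted p = 0.397). Rnaseh2a, the catalytic subunit of a nuclease that removes ribonucleotides, had 38.6 and 47.4 CPM in knockout-labelled 22 and 24, against 42.0 and 38.2 CPM in wild type 13 and 15 (log2 fold change 0.10, SE 0.15, adjusted p = 0.681).

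**Figure D4:**
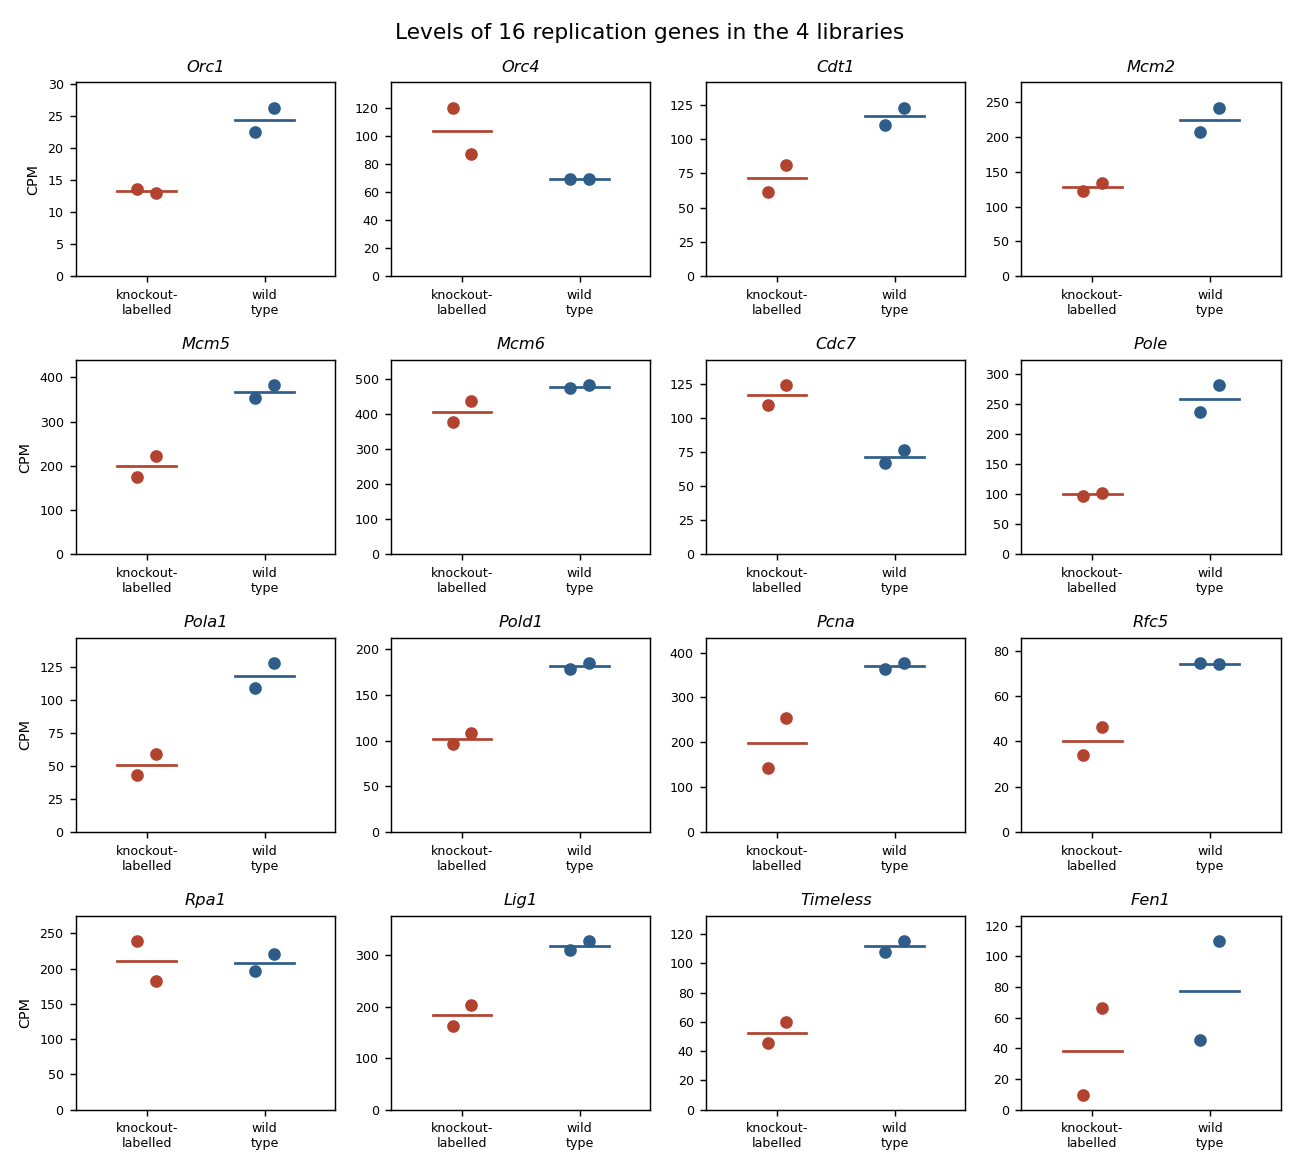
CPM of 16 replication genes in the 4 libraries, with knockout-labelled 22 and 24 at the left and wild type 13 and 15 at the right of each panel, and group means as lines. Orc1, Mcm5, Pole and Timeless have a gap between groups, Cdc7 and Orc4 lie higher in the knockout-labelled libraries, and the points of Rpa1 and Fen1 overlap.

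The promoters of some of these genes carry E2F words, and 6 promoters are shown as examples of genes that fell, did not pass or rose. RefSeq windows (GRCm38.p6, from 250 bases before to 50 bases after each start) were found by symbol for 43 of the 52 genes, and not for Prim2, Gins2, Gmnn, Pole, Gins4, Gins1, Rfc2, Tipin and Mcm4. Each stretch below runs 5′ to 3′ on the strand of its gene, from 160 bases before the start to 30 after it, and capitals mark every match on either strand to the words TTTCCCGC, TTTGGCGC, TTTCGCGC or TTTGCCGC. Matches may overlap and then run together. Orc1 (chr4:108579294-108579483, plus strand), Mcm5 (chr8:75109349-75109538, plus strand) and Pola1 (chrX:93632126-93632315, minus strand) fell. Mcm6 (chr1:128359676-128359865, minus strand) and Rfc3 (chr5:151651179-151651368, minus strand) did not pass the test. Cdc7 (chr5:106964162-106964351, plus strand, the first of its windows) rose, and no match was found in it. The shown genes that fell or did not pass all have a match. In the full windows, 7 of 17 genes that fell and 11 of 25 not past the test had one, so the 6 are not representative.
Orc1: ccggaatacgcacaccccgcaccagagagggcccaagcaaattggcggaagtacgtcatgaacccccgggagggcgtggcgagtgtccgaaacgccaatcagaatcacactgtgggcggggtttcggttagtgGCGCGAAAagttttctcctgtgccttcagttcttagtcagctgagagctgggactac
Mcm5: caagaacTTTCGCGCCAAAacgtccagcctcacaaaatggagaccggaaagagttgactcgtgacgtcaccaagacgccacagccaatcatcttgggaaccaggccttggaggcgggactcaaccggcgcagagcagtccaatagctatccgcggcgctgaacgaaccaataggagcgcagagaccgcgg
Pola1: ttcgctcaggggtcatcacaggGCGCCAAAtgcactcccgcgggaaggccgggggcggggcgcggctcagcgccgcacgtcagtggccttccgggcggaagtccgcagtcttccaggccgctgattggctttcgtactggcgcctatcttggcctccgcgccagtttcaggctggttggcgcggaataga
Mcm6: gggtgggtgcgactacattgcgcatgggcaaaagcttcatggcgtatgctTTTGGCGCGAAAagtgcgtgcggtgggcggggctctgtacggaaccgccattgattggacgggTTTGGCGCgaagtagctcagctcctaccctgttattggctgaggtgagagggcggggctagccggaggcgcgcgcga
Rfc3: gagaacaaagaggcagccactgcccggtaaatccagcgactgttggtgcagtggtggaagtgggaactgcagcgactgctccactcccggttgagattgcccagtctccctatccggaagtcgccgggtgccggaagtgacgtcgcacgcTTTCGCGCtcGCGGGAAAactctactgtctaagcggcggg
Cdc7: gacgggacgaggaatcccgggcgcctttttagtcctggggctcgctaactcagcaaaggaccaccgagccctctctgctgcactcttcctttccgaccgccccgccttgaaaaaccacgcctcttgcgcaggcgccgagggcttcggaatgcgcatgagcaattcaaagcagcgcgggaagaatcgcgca

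An E2F word was present in the window of 18 of the 43 genes (41.86%), against 704 of all 27025 genes with a window (2.60%). The 27025 genes were not limited to those that passed the filter on low counts, as all members did. The windows of the members were richer in G and C, with a median of 62.3% against 52.7% over all windows, and the part of this in the word count was not tested. Among the genes that fell, 7 of 17 had a word (41.18%), and among those not past the test, 11 of 25 did (44.0%). By class, the word was found in 7 of 12 helicase genes, 4 of 8 origin genes, 5 of 9 polymerase genes, 1 of 5 clamp genes and 1 of 9 other fork genes. The letters CCAAT, on either strand, were found in 53.49% of the member genes and in 41.06% of all genes. A match is a description of the sequence, and shows no binding by a factor.

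Other genes that act with the machinery were counted in the same fit, in which 4.59% of all genes tested fell and 5.53% rose. Of 36 further replication genes tested, 8 fell and 1 rose (median log2 fold change -0.492). Recql4, a helicase of replication initiation, had 16.7 and 20.7 CPM in knockout-labelled 22 and 24, against 42.2 and 45.0 CPM in wild type 13 and 15 (adjusted p = 0.0158). Clspn, the checkpoint mediator claspin, had 101.5 and 137 CPM in knockout-labelled 22 and 24, against 235 CPM in both wild type 13 and 15 (adjusted p = 0.0234). The gene that rose was Pold4, the smallest subunit of polymerase delta, with 273 and 216 CPM in knockout-labelled 22 and 24, against 126 and 117 CPM in wild type 13 and 15 (log2 fold change 1.01, adjusted p = 0.0188). Neither the rise of Pold4 nor the fall of Pold1, the catalytic subunit gene of the same polymerase, passed with wild type 13 left out (adjusted p = 0.0608 for Pold4 and 0.0937 for Pold1) or with wild type 15 left out (adjusted p = 0.109 and 0.142). Of these 36 genes, 11 and 24 fell when knockout-labelled 22 or 24 was left out, and 1 and 0 when wild type 13 or 15 was.

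Of 17 nucleotide supply genes, 7 fell and 1 rose (median log2 fold change -0.744). Cad, the first enzymes of pyrimidine synthesis, had 62.7 and 61.6 CPM in knockout-labelled 22 and 24, against 112 and 126 CPM in wild type 13 and 15 (adjusted p = 0.0168). Atic, of purine synthesis, had 62.8 CPM in both knockout-labelled 22 and 24, against 99.9 and 111 CPM in wild type 13 and 15 (adjusted p = 0.0257), and Ctps, the CTP synthase gene, also fell (log2 fold change -0.86, adjusted p = 0.0262). The gene that rose, named after its values were seen, was Samhd1, which encodes a hydrolase of deoxynucleotides, with 992 and 845 CPM in knockout-labelled 22 and 24, against 592.5 and 552 CPM in wild type 13 and 15 (adjusted p = 0.0265). When knockout-labelled 22 or 24 was left out, 10 and 12 of the 17 fell, and when either wild-type library was left out, 0 did. Samhd1 also did not pass with wild type 13 or 15 left out (adjusted p = 0.114 and 0.195).

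Of 18 genes of the E2F and RB families and their partners, 7 fell and 1 rose. E2f8 had 36.6 and 39.3 CPM in knockout-labelled 22 and 24, against 79.8 and 87.9 CPM in wild type 13 and 15 (adjusted p = 0.0116). E2f1, an activator of replication genes, had 25.2 and 31.7 CPM in knockout-labelled 22 and 24, against 56.1 and 56.9 CPM in wild type 13 and 15 (adjusted p = 0.0199), and E2f7 fell too (log2 fold change -1.16, adjusted p = 0.0267). Rbl2, a pocket protein of resting cells and named after its values were seen, rose (log2 fold change 0.58, adjusted p = 0.0471). With either wild-type library left out, 2 of the 18 fell and 0 rose, and the adjusted p of Rbl2 was 0.232 without wild type 13 and 0.326 without wild type 15. Of 12 quiescence genes, 4 rose and 0 fell (1 was lower at an unadjusted p below 0.05, and DESeq2 called 1 lower). Their median log2 fold change was 0.095. The gene lower at an unadjusted p below 0.05, named after its values were seen, was Cdkn2c (log2 fold change -0.765, adjusted p = 0.0675). It had 37.5 and 58.4 CPM in knockout-labelled 22 and 24, against 85.25 and 77.7 CPM in wild type 13 and 15. Cdkn1b, the cyclin-dependent kinase inhibitor p27, had 449 and 372 CPM in knockout-labelled 22 and 24, against 241 and 200 CPM in wild type 13 and 15 (adjusted p = 0.0235), and the antiproliferative genes Btg1 and Btg2 rose as well (log2 fold change 0.60 each). Of 28 mitosis genes, 2 fell and 3 rose, where 4.59% of all genes tested fell and 5.53% rose. Their median log2 fold change was 0.051. Foxm1, which drives G2 and mitotic genes, fell (log2 fold change -0.75, adjusted p = 0.0265). Cdc20 and Cenpa, of anaphase and the centromere, rose (log2 fold changes 0.60 and 0.68, adjusted p = 0.0324 and 0.0338). Mki67 also fell (log2 fold change -0.515, adjusted p = 0.0408) and Ube2c also rose (0.589, adjusted p = 0.0421), both named after their values were seen. With either wild-type library left out, 0 of the mitosis genes fell, and 0 of the mitosis and 0 of the quiescence genes rose. The adjusted p of Foxm1 was then 0.143 (wild type 13 left out) and 0.148 (wild type 15 left out). All of these counts share the 4 libraries of the replication genes. The share of all genes that fell in each fit with a library left out is given above. It was smaller without either wild-type library than in the full fit.

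Of 7 Treg markers, 4 fell, where 4.59% of all genes tested fell. These were Gpr83, Foxp3, Izumo1r and Il2ra (log2 fold changes -3.60, -2.18, -1.255 and -0.524, adjusted p = 0.0108, 0.0233, 0.0267 and 0.0304). Of 8 T-cell markers none passed the test (0 lower and 1 higher at an unadjusted p below 0.05, and 1 higher by DESeq2). The Treg markers Ctla4 and Ikzf2 had both knockout-labelled libraries above both wild-type libraries (log2 fold changes 0.41 and 0.34), and these 2 were higher at an unadjusted p below 0.05 but did not pass the test (adjusted p = 0.0702 and 0.103). Leaving out wild type 13 or 15 left 2 and 3 of the Treg markers that fell. Markers of other cells moved with the groups in some lists. Summed B-cell marker RNA (6 genes, Ighm the most) was 282 and 332 CPM in knockout-labelled 22 and 24, against 222 and 225 CPM in wild type 13 and 15. Summed gamma-delta T-cell marker RNA (4 genes) was 33.7 and 50.8 CPM in knockout-labelled 22 and 24, against 17.5 and 15.2 CPM in wild type 13 and 15, with Sox13 at 0 in wild type, and Tcrg-C1 and Tcrg-C2 rose (0 rose without wild type 15). Trdc, of the same gamma-delta list, had 10.1 and 5.81 CPM in knockout-labelled 22 and 24, against 5.09 and 6.57 CPM in wild type 13 and 15. Its groups overlapped, and it did not pass the test (adjusted p = 0.374). Sox13 was not tested, with 3 and 1 counts in knockout-labelled 22 and 24. CD8 markers summed to 182 and 78.5 CPM in knockout-labelled 22 and 24, against 125 and 183 CPM in wild type 13 and 15. Natural killer, dendritic, myeloid, erythroid and platelet markers summed to at most 10.04, 27.4, 27.4, 3.13 and 5.58 CPM in any library, and Ncr1 was at 0 in wild type while Siglech, Xcr1 and Gp9 were at 0 in all 4 libraries. The dendritic genes Zbtb46 and Flt3 passed the test, Zbtb46 higher and Flt3 lower (neither without wild type 15), and of the tested CD8, B-cell, natural killer, myeloid, erythroid and platelet markers edgeR called 0. At an unadjusted p below 0.05, 5 B-cell markers were higher and 0 of the others passed, and DESeq2 called 0. Their part in the replication results was not tested.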

How the data were processed

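The authors' deposited table held raw counts per gene for the 4 libraries and, beside them, FPKM values. Per the submitters' processing notes, the tools were RSEM and Bowtie2 and the genome GRCm38.p6 (mm10). How strand was used is not stated, so reads of overlapping genes cannot be separated. This also touches members whose overlap is not given above, among them Rfc4, Orc6 and Fen1. Rfc4 (3349 counts over the 4 libraries) overlaps the opposite-strand gene Eif4a2 (33925 counts) over 194 bases. Orc6 (3443) overlaps Vps35 (12028) over 171 bases, and Fen1 (3558) overlaps Tmem258 (2522) over 156 bases, both also on the opposite strand. The authors' FPKM rested on 1 length per gene: over 11475 genes with at least 20 counts, 0 departed by more than 0.01% between libraries. The fold changes come from the counts, and FPKM served for levels between genes and as an alternative.

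The counts were fitted with edgeR 4.0.16 (R 4.3.3), without covariates and two-sided. The filterByExpr function kept 13279 genes (minimum count 10 and minimum total 15). Scaling used trimmed means of M values, with factors of 0.959 in knockout-labelled 22, 1.00 in knockout-labelled 24, 1.02 in wild type 13 and 1.02 in wild type 15. The quasi-likelihood F test was adjusted by Benjamini-Hochberg over all tested genes, with a threshold of 0.05, and every adjusted p of the report comes from it. CPM used the scaled library sizes. The standard error is the size of the log2 fold change divided by the square root of F, and is approximate. The fitted biological coefficient of variation was 0.157. With 2 libraries a side, an exact permutation of 1 gene has 0.333 as its smallest p, and the test therefore borrows its spread from all genes. The procedure was also run on simulated counts that gave every gene the same spread, so this does not measure the error of the calls here.

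The members and the other gene lists were chosen with earlier results of these data known. The rule for full statistics took, in each class, up to 4 genes that passed with the lowest adjusted p, the gene with the highest, every gene with a fitted value above 0, and a set of well-known members, and up to 3 genes of each other list. Counts of the lists come from the same fit. Matching stretches were sought between transcripts with BLAST+ 2.17.0 (at least 95% identity over 300 bases). In 5 members a matching gene held 5% or more of the summed counts in a library. For Pcna this was the pseudogene Pcna-ps2. For Gins2, Orc2, Orc4 and Rfc2 it was an opposite-strand gene that overlaps the member (Gse1, Nif3l1, Acvr2a and Lat2), and not a copy. Alternatives were other scalings and filters, DESeq2 1.42.0, limma 3.58.1 on log2(FPKM + 1) or log2(FPKM + 0.1), testing against a fold of 1.5, and leaving out each library. Promoter windows came from RefSeq. Figures were drawn with matplotlib 3.10.9.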

Additional observations from a re-analysis of the deposited data

How the results depend on the processing

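With 2 libraries a group, the counts of replication genes that fell depended most on the wild-type libraries and on a minimum fold. No paired analysis was possible because the library numbers are shared by no 2 groups. Of all 13279 genes tested, 598 fell with RLE scaling, 771 with library totals, 590 with upper-quartile factors and 912 with DESeq2. The filter of 1 CPM in 2 libraries gave 608 of 12649 genes lower, and no low-count filter 1088 of 18847. Limma on log2(FPKM + 1) and log2(FPKM + 0.1) gave 446 and 434 lower. A minimum fold of 1.5 gave 35 lower (629 at an unadjusted p below 0.05). Of the 52 genes, the same count of 22 fell with RLE scaling, with library totals and with a filter of 1 CPM in 2 libraries, 20 with upper-quartile factors, 30 without a low-count filter, 29 with DESeq2, and 15 and 16 with limma on log2(FPKM + 1) and log2(FPKM + 0.1). Against a minimum fold of 1.5, 1 fell (15 at an unadjusted p below 0.05). Leaving out 1 library gave 1 to 39 genes that fell and 0 to 2 that rose; 1 library then stands for its group and is assumed to vary like the other. The 1 gene that rose became 2 without a filter and 2 with DESeq2, and 0 with both limma fits and 0 against the minimum fold. The median log2 fold change of the 52 genes stayed between -0.747 and -0.479, that of all genes between -0.062 and 0.033.

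By class, a minimum fold of 1.5 left 0 origin, 0 helicase, 1 polymerase, 0 clamp and 0 other fork genes (1, 4, 4, 1 and 5 at an unadjusted p below 0.05). Upper-quartile factors gave 1 origin gene, and other fork genes came to 5 without a filter and 5 with DESeq2. Leaving out 1 library gave 0 to 5 origin, 0 to 12 helicase, 1 to 9 polymerase, 0 to 6 clamp and 0 to 7 other fork genes. Over all genes, 1088 fell and 1261 rose without a filter, 445 and 457 rose with the limma fits, 35 fell and 85 rose against the minimum fold, and leaving out 1 library gave 70 to 2002 lower and 120 to 2122 higher. Genes near 0 changed sign. Over the fits that left out 1 library, the log2 fold change ran between -0.6074 and 0.004342 for Gmnn, -0.3211 and 0.1549 for Gins4, -0.1163 and 0.3991 for Dbf4, -0.1796 and 0.02547 for Pole3, -0.186 and 0.192 for Rpa1, -0.1842 and 0.2262 for Rpa2, and -0.05943 and 0.2497 for Rnaseh2a. Rpa1 also gave -0.04837 with library totals, -0.02163 with upper-quartile factors, and -0.05332 and -0.05518 with the limma fits, and Rpa2 gave -0.0213 with library totals, and -0.03723 and -0.03908 with the limma fits. The cause of these changes was not tested.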
